A study of Danio rerio with 72 samples.

Results

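The comparison described here set 4 arrays of zebrafish embryos that carried the heat-inducible transgene Tg(hsp:70:dkk1-gfp) against 4 arrays of wild-type AB embryos given the same heat shock. These 8 of the 72 arrays in the series were taken by genotype, heat shock and dissection time, and no measured value was used to choose them. Both groups were raised at 24 °C to the 12-somite stage, shocked for 30 min at 37 °C and dissected 60 min later. The tissue was the posterior presomitic mesoderm (PSM), the unsegmented mesoderm at the tail end of the embryo from which somites bud off. Embryos of 2 other heat-inducible lines, Tg(hsp:70:DeltaTcF-gfp) and Tg(hsp:70:wnt8a-gfp), with 4 arrays each and the same shock and dissection time, served to show where the dkk1 libraries differed from other transgenic libraries. The wnt8a line is named for a Wnt ligand, so a difference between dkk1 and wnt8a libraries can come from either transgene. wnt8a itself was not among the genes tested, so its induction was not read. Side values are also given from 4 arrays of the heat-inducible line dnfgfr1-EGFP, named for a dominant-negative Fgf receptor and treated alike. A further 4 arrays were of wild type dissected 30 min after the shock. Every group, wild type included, had therefore been heat-shocked. The hsp70 promoter answers to heat in most cells, so the transgene was not limited to the PSM. Arrays of a group are labelled as biological replicates, but separate clutches are not mentioned. The p-values rest on the spread between arrays within groups, pooled over all 19 groups of the series and not taken from the compared arrays alone. Where a clutch was shared, that spread is one between samples and not between clutches.

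Dkk1 is a secreted inhibitor of canonical Wnt signalling. It binds the Lrp co-receptors that Wnt ligands and Frizzled receptors need at the cell surface, and when the co-receptors are blocked, beta-catenin is degraded and Tcf/Lef factors do not switch on their targets. In the tail bud and posterior PSM, Wnt signals maintain mesodermal progenitors and work beside Fgf and Notch signals in the segmentation clock. Several Wnt targets, axin2 and the sp5 genes among them, are feedback regulators that are often read as a measure of pathway activity.

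Levels are given as log2(signal + 16) after quantile normalisation, a scale whose bottom is 4. Differences are log2 values with the standard error (SE) of the fit, folds are on the same scale and understate changes of dim genes, and a gene is called when its adjusted p (limma, Benjamini-Hochberg over all probe sets tested) is under 0.05. The number of arrays limits the precision of every value.

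Some defining genes of posterior mesoderm were bright in both groups, and others were not. Among 9 such markers, msgn1, cdx4 and tbx16 stood at 12.68, 12.51 and 11.62 in the dkk1 libraries, against 12.62, 12.31 and 11.38 in wild type. The other 6 were nominally lower in dkk1, by -0.11 for tbx6, -0.73 for dlc, -0.86 for her1, -0.96 for tbxta, -1.25 for her7 and -1.56 for fgf8a, and only cdx4 and fgf8a of the 9 were called. In that order, these 6 stood at 9.37, 8.996, 7.43, 8.45, 6.98 and 5.77 in dkk1 libraries. They were at 9.49, 9.73, 8.28, 9.40, 8.24 and 7.33 in wild type. Of muscle markers, myf5 was at 11.18 in dkk1 libraries and 10.65 in wild type, actc1b at 7.49 and 7.90 and mylpfa at 4.33 and 4.57. Of neural markers, sox2 was at 6.47 in dkk1 libraries and 7.66 in wild type, elavl3 at 4.43 and 6.13 (up to 7.72 in single wild-type arrays) and pax6a at 4.41 and 4.36. Levels of genes of other tissues were unequal between libraries. Over 41 epidermal genes the mean level was 5.10 in dkk1 replicate 1 and 6.53 to 6.93 in the other dkk1 libraries, against 6.26 to 7.03 in wild type. Over 36 neural genes it lay between 5.43 and 5.58 in the dkk1 libraries, against 6.12, 5.41, 5.47 and 6.33 in wild-type replicates 1 to 4, so that wild-type replicates 1 and 4 were higher in neural genes than the other 6 libraries. The notochord and floor plate list gave 6.98 to 7.16 in the dkk1 libraries and 7.17 to 7.72 in wild type over 17 genes. That list includes the coatomer subunit genes copa, copb1 and copb2, which are not specific to notochord. In dissected tissue, fewer cells of a type and less RNA per cell cannot be told apart.

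Some technical readings moved with the groups. The hybridisation spike bioB, added in a fixed amount, averaged 7.13 ± 0.15 in dkk1 libraries and 6.64 ± 0.16 in wild type on the deposited scale (SD, n = 4 each). Its groups did not overlap, and nor did those of bioC (means 8.55 and 7.85), bioD (10.1 and 9.40) and cre (12.49 and 11.92). bioB averaged 6.96 in wnt8a libraries and 7.11 in those labelled DeltaTcf. It averaged 6.65 in wild type dissected 30 min after the shock and 6.67 in the dnfgfr1 line. The 3′ minus 5′ difference of the actin control probe sets, which grows as RNA is shortened, averaged 1.16 ± 0.67 in dkk1 libraries, against 2.59 ± 0.66 in wild type (SD, n = 4 each), also without overlap, while that of GAPDH was 2.05 ± 0.59 and 2.21 ± 0.38. Between dkk1 and wnt8a libraries, bioC (means 8.55 and 8.28) and the GAPDH difference (means 2.05 and 1.43) did not overlap. There was overlap in bioB, bioD, cre and the actin difference. The part of these readings in the differences below was not tested. No batch is given, so a difference between library batches cannot be told apart from the genotype in any comparison here.

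The transgene was read through dkk1b, whose probe set does not separate the transgene's message from that of the embryo's own gene. dkk1b had 12.97, 13.12, 13.12 and 12.996 in the dkk1 libraries, against 5.93, 5.48, 5.61 and 4.73 in wild type. All 4 dkk1 libraries were far above all 4 wild-type libraries, a 196-fold difference (7.62 ± 0.34, adjusted p = 1.32e-26). The wnt8a libraries were at 5.33 to 5.84, but the libraries labelled DeltaTcf read 12.70, 12.77, 12.91 and 12.85, and their dkk1b did not differ from that of the dkk1 libraries by the test (0.25 ± 0.34, adjusted p = 0.8). DeltaTcf is a Tcf repressor without its beta-catenin binding part. Its nearest gene on the array, tcf7l1a, had 5.70 ± 0.28 in the libraries labelled DeltaTcf and 6.01 ± 0.24 in wild type (SD, n = 4 each), but that probe set may lie outside the transgene. Since dkk1b goes against the label of those libraries, they are called by their label only and used as side values.

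Wnt targets and tail bud genes stood lower in the dkk1 libraries. Most ligand and receptor genes of the pathway were not called, but that also held for most genes tested. axin2 and sp5a fell furthest among named genes, and znf703, cyp26a1 and vox fell with them. Of these, axin2, sp5a, znf703 and vox were also lower in dkk1 than in wnt8a libraries, as were sp5l and fzd10. In all, 24.6% of 10126 probe sets were called against wild type, 1269 higher (12.5%) and 1225 lower (12.1%) in dkk1, so a call in this comparison is common and the size of a change, its overlap and its value in other lines carry more than the call alone.

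**Figure D1:**
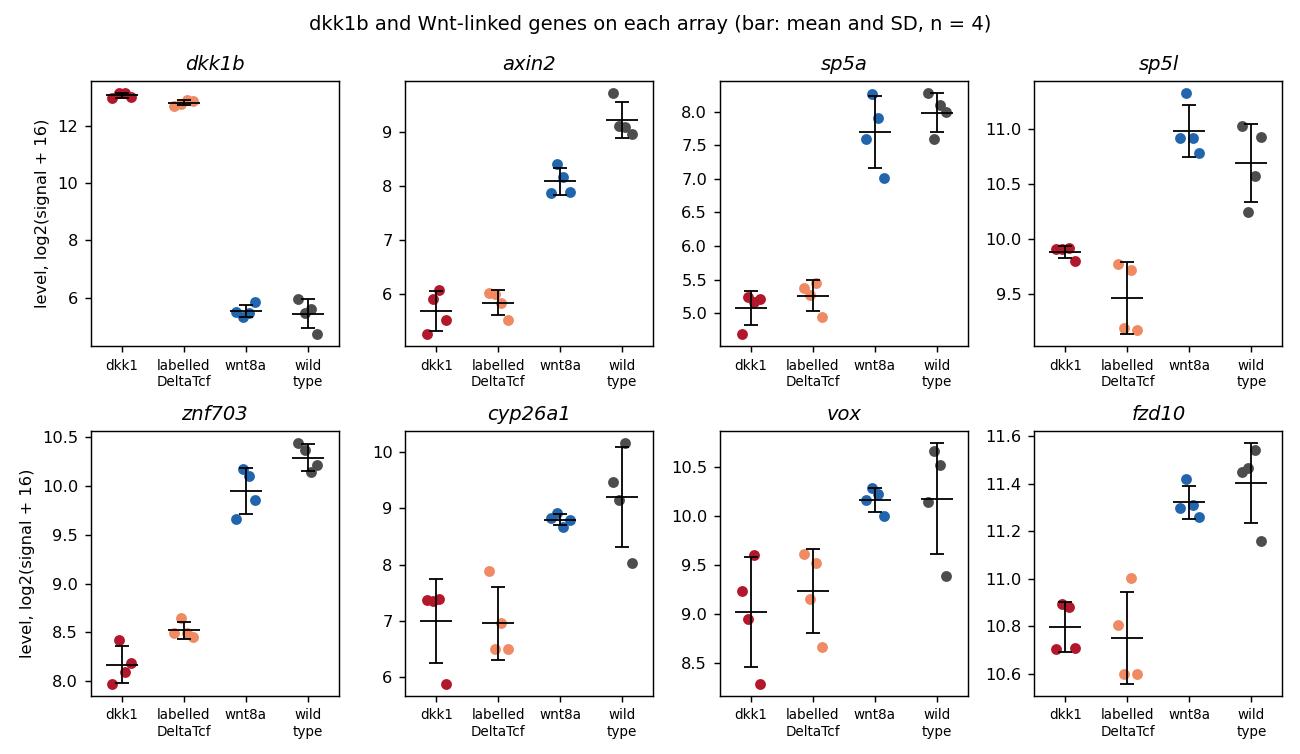
Level of dkk1b and 7 genes linked to Wnt signalling on each array, as log2(signal + 16), in dkk1, labelled DeltaTcf, wnt8a and wild-type libraries (4 each). Points are arrays and bars the mean with its SD. axin2, sp5a and znf703 of every dkk1 array lie below every wnt8a and wild-type array, and dkk1b is high in both the dkk1 and the labelled DeltaTcf libraries.

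Among the feedback genes, axin2, a scaffold of the complex that destroys beta-catenin, had 5.25, 5.90, 6.07 and 5.50 in the dkk1 libraries, 7.87, 8.40, 8.17 and 7.88 in wnt8a libraries, and 9.72, 9.10, 9.09 and 8.96 in wild type. The 3 groups did not overlap. The fall against wild type was 11.6-fold (-3.54 ± 0.27, adjusted p = 8.46e-16), and the level was 5.27-fold below that of the wnt8a libraries (-2.40 ± 0.27, adjusted p = 6.15e-09). The libraries labelled DeltaTcf stood at 5.51 to 6.01, with a mean that did not differ from that of the dkk1 libraries by the test (-0.15 ± 0.27, adjusted p = 0.859). A separate group of wild-type embryos, dissected 30 min after the shock, had axin2 at 8.79 to 10.02.

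sp5a encodes an Sp-family zinc finger factor that Wnt signals switch on. It had 4.69, 5.24, 5.16 and 5.21 in the dkk1 libraries, 7.59, 8.26, 7.91 and 7.01 in wnt8a libraries, and 8.27, 7.59, 8.09 and 7.996 in wild type. Every dkk1 library was near the bottom of the scale and below every wnt8a and wild-type library. The fall was 7.52-fold against wild type (-2.91 ± 0.36, adjusted p = 1.23e-08) and 6.13-fold against wnt8a libraries (-2.62 ± 0.36, adjusted p = 1.56e-06). Its relative sp5l, a brighter gene, had 9.91, 9.91, 9.92 and 9.80 in dkk1 libraries, 10.92, 11.33, 10.92 and 10.78 in wnt8a libraries, and 11.03, 10.25, 10.57 and 10.93 in wild type. No array overlapped, and the falls were -0.81 ± 0.26 against wild type (adjusted p = 0.0158) and -1.10 ± 0.26 against wnt8a (adjusted p = 0.00764). The call of sp5l against wild type was lost without wild-type replicate 1 or 4 and with the 30 min wild-type libraries as control, where its highest adjusted p was 0.697.

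znf703, which encodes a zinc finger co-repressor, had 7.97, 8.42, 8.09 and 8.19 in the dkk1 libraries, 9.66, 10.18, 10.10 and 9.85 in wnt8a libraries, and 10.44, 10.37, 10.15 and 10.21 in wild type. The dkk1 libraries were all lowest, by 4.36-fold against wild type (-2.12 ± 0.21, adjusted p = 8.96e-12) and 3.43-fold against wnt8a libraries (-1.78 ± 0.21, adjusted p = 1.84e-08). The homeobox repressor gene vox, active in ventral and tail mesoderm, had 9.24, 8.95, 9.61 and 8.29 in dkk1 libraries, 10.16, 10.29, 10.22 and 9.996 in wnt8a libraries, and 10.14, 10.66, 10.52 and 9.39 in wild type. Wild-type replicate 4 fell within the dkk1 range, so vox overlapped with wild type but not with wnt8a. Its differences were -1.16 ± 0.33 (adjusted p = 0.00658) and -1.14 ± 0.33 (adjusted p = 0.0376), the first lost without dkk1 replicate 4 and the second without any 1 of dkk1 replicates 1, 2 and 4 or of the 4 wnt8a replicates.

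cyp26a1, the enzyme that breaks down retinoic acid in the tail bud, had 7.37, 7.35, 7.39 and 5.89 in the dkk1 libraries, 8.83, 8.92, 8.66 and 8.79 in wnt8a libraries, and 9.47, 9.15, 10.17 and 8.02 in wild type. The dkk1 libraries were again below both groups without overlap, by 4.61-fold against wild type (-2.20 ± 0.58, adjusted p = 0.00316). The difference from wnt8a libraries, -1.80 ± 0.58, missed the threshold (adjusted p = 0.069).

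Over the whole list of Wnt targets and feedback genes, 24 were on the array, 23 passed the filter on dim probe sets, and 1 was called higher and 11 lower than in wild type. That is 52.2% of those tested, beside 25.4% of all 6503 genes (12.6% higher and 12.8% lower), and the median difference was -0.75 against -0.01 over all genes. Without dkk1 replicate 4 the list had 7 calls, without wild-type replicate 1 it had 6, and with the 30 min wild-type libraries as control 7. Against wnt8a libraries 4 were called, all lower in dkk1 (axin2, sp5a, sp5l and vox), 17.4% of the list beside 3.37% of all genes (1.4% higher and 1.97% lower). Other called falls against wild type were the growth regulators mycb (-0.75 ± 0.21, adjusted p = 0.0043) and ccnd1 (-0.56 ± 0.15, adjusted p = 0.00338). Both also stood low in wnt8a libraries, where mycb averaged 8.01 and ccnd1 10.33, beside 7.79 and 10.34 in dkk1 libraries and 8.54 and 10.90 in wild type. A dimmer probe set of ccnd1 fell further from wild type (-1.33, adjusted p = 1.54e-10) and was not called against wnt8a (adjusted p = 0.511). The remaining called falls, cyp26a1 and fgf8a apart, were those of sall4, gbx1 and id3, which averaged 4.28, 4.29 and 6.29 in dkk1 libraries, against 5.55, 5.81 and 7.10 in wild type, and which lost their calls in 5 of 18, 13 of 18 and 11 of 19 alternative fits.

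Not all genes that Wnt signals are known to act on were called lower. msgn1, tbx16 and tbx6, T-box and helix-loop-helix factors of the PSM, were not called, with differences of 0.06 ± 0.08 for msgn1 and 0.23 ± 0.15 for tbx16 on their brightest probe sets. Their dimmer probe sets read otherwise, that of msgn1 being called higher in dkk1 (0.67, adjusted p = 0.0209) and that of tbx16 lying at -0.85 (adjusted p = 0.135). lef1, which encodes a nuclear partner of beta-catenin, had 7.31 ± 0.12 in dkk1 libraries and 6.96 ± 0.25 in wild type (SD, n = 4 each, adjusted p = 0.415). tbxta, the brachyury homologue of the tail bud and notochord, had 8.46, 8.59, 8.52 and 8.21 in dkk1 libraries, against 10.05, 8.96, 9.55 and 9.05 in wild type. Its groups did not overlap, yet the difference of -0.96 ± 0.40 missed the threshold (adjusted p = 0.0777). cdx4, a caudal homeobox gene, was the only called rise of the list, at 0.20 ± 0.07 (adjusted p = 0.0374), and that call was lost without any 1 of dkk1 replicates 2, 3 and 4 or wild-type replicates 1, 2 and 4. The 11 members of the list not called had differences between -1.13 for the homeobox repressor gene ved and 0.35 for lef1, and they included mycn, myca, jun, gbx2 and cdx1a.

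Of the pathway's own parts, few at the cell surface were called. Of 5 ligand and ligand-secretion genes tested 1 fell, wnt5b, a non-canonical ligand of the tail bud, with 7.77, 7.14, 6.80 and 7.49 in dkk1 libraries, against 8.63, 8.33, 8.41 and 8.13 in wild type (-1.08 ± 0.22, adjusted p = 0.000202). Of 8 receptors 1 fell, fzd10, with 10.70, 10.90, 10.88 and 10.71 in dkk1 libraries, 11.30, 11.42, 11.31 and 11.26 in wnt8a libraries, and 11.45, 11.47, 11.54 and 11.16 in wild type. The dkk1 arrays were below all arrays of both groups, and fzd10 was called against wild type (-0.61 ± 0.13, adjusted p = 0.000172) and against wnt8a libraries (-0.52 ± 0.13, adjusted p = 0.0082), a call lost under median centring. wnt5b did not share this: its mean in wnt8a libraries was 7.59, close to the dkk1 mean of 7.30 (adjusted p = 0.56). Among 6 secreted inhibitors dkk1b alone was called, with wif1 at 9.77 and 9.97 and notum1b at 8.997 and 8.46 in dkk1 and wild-type libraries. The 4 ligand genes not called (wls, wnt11, wnt4b and wnt10a) differed by -0.39 to 0.19, the 7 receptor genes not called (fzd2, fzd7a, fzd7b, fzd8a, fzd9b, ror2 and ryk) by -0.33 to 0.23, and the 5 inhibitor genes not called, dkk3b, sfrp1a and sfrp5 among them, by -0.19 to 0.57. These ranges are for the brightest probe set of each gene. A second probe set of wls was called lower (-0.61, adjusted p = 0.0319), and the third, at 4.05 in dkk1 libraries, 9.38 ± 3.28 in those labelled DeltaTcf, 10.82 ± 0.21 in wnt8a libraries and 4.17 in wild type (SD, n = 4 each), differed by -6.77 from wnt8a (adjusted p = 5.13e-07) but was not called against wild type.

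Inside the cell, 1 of 22 genes rose and 7 fell, 36.4% beside the 25.4% of all genes. The largest falls were those of tle2a, a Groucho co-repressor that sits on Tcf factors, at -1.60 ± 0.27 (adjusted p = 6.88e-06), and axin1, the constitutively expressed relative of axin2, at -1.25 ± 0.19 (adjusted p = 6.62e-07). axin1 had 7.68, 6.94, 7.01 and 7.49 in dkk1 libraries, 7.76, 7.58, 7.66 and 7.68 in wnt8a libraries, and 8.10, 8.48, 9.23 and 8.33 in wild type. Its dkk1 and wnt8a values overlapped and both lay under wild type. The other falls were the Dishevelled genes dvl2 (-0.93 ± 0.20) and dvl3a (-0.81 ± 0.15), the kinase genes gsk3ab (-0.65 ± 0.14) and csnk1a1 (-0.39 ± 0.11), and the beta-catenin gene ctnnb2 (-0.48 ± 0.11), with adjusted p between 4.57e-05 for dvl3a and 0.00751 for csnk1a1. prickle1b, of the planar polarity branch, was the single rise (0.66 ± 0.18, adjusted p = 0.00527). The 14 members not called, which include ctnnb1 and the Tcf gene tcf7l1b, lay between -0.40 and 0.34 on their brightest probe sets, but dimmer ones of pygo2 (-1.68, adjusted p = 1.23e-08) and tle3b (-0.74, adjusted p = 0.00432) were called lower. Against wnt8a libraries the only call in the list was the kinase gene csnk1da (-0.42 ± 0.12, adjusted p = 0.0467), which lost it in 11 of 18 alternative fits, and axin1, tle2a and dvl2 had adjusted p of 0.286, 0.323 and 0.881.

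**Figure D2:**
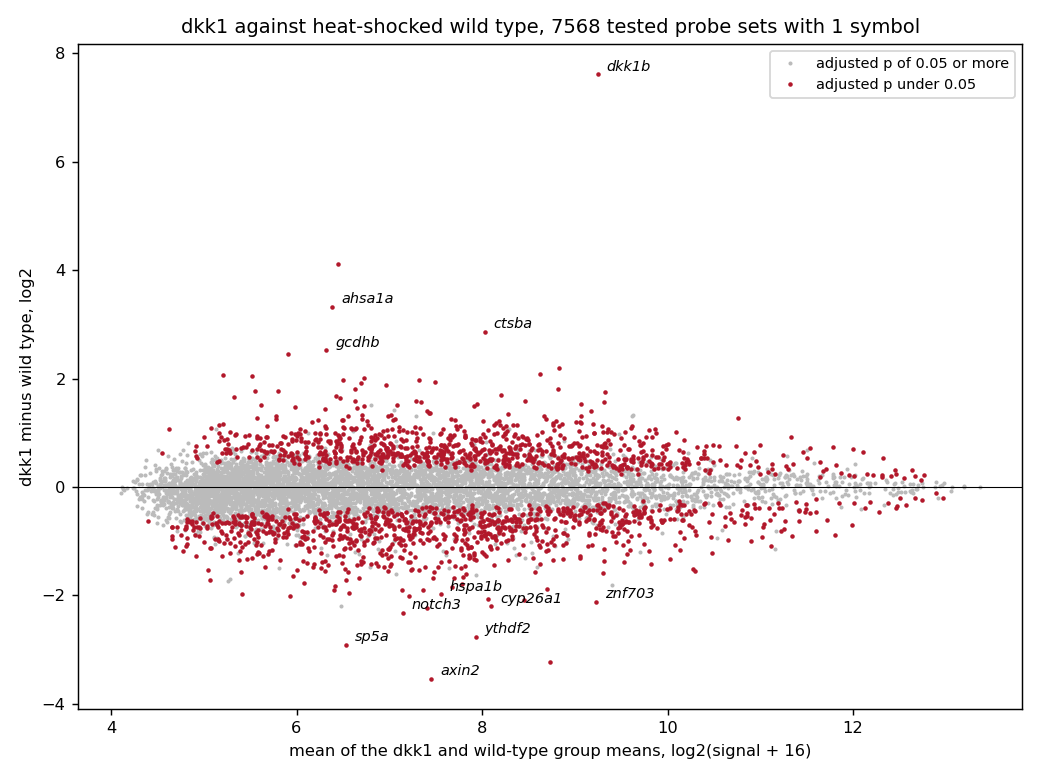
Difference between dkk1 and wild-type means (vertical axis, log2) against the mean of the 2 groups (horizontal axis, log2(signal + 16)) for the tested probe sets with 1 gene symbol. Red points are called, and dkk1b at 7.62 and axin2 at -3.54 are the extremes among the labelled genes.

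The changes against wild type ran well beyond the pathway. Of the 2494 called probe sets 215 were over 2-fold higher and 271 over 2-fold lower in dkk1 libraries, and 18 and 15 were past 4-fold. Arrays of the groups did not overlap in 2041 of the called probe sets, 20.2% of those tested. Against wnt8a libraries 332 probe sets were called, 3.28%, of which 156 were higher (1.54%) and 176 lower (1.74%) in dkk1, with 41 and 43 past 2-fold. Against the libraries labelled DeltaTcf 352 were called, 3.48%, with 173 higher (1.71%) and 179 lower (1.77%). These comparisons share the dkk1 arrays, so many of the genes below are given with values in other lines, though not always in every line.

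**Figure D3:**
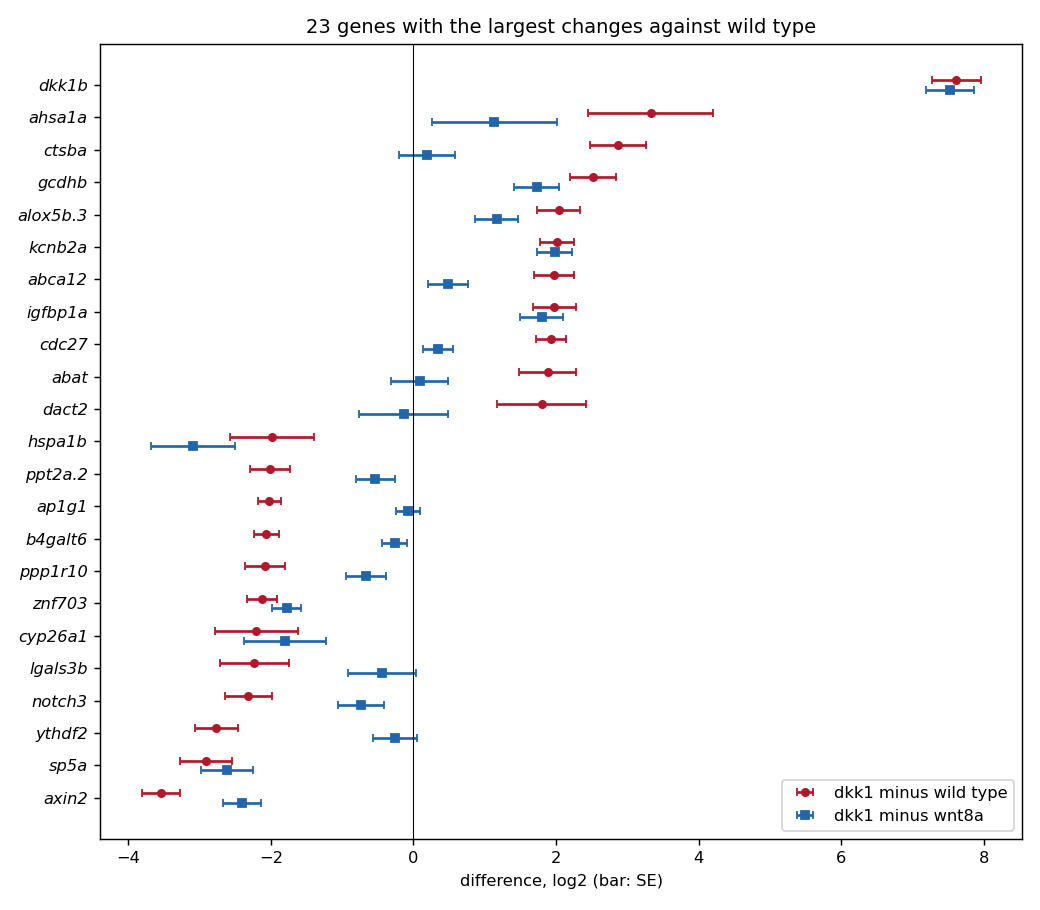
Differences (horizontal axis, log2, bars are SE) of 11 of the 12 largest rises and of the 12 largest falls against wild type, with dkk1 minus wild type as circles and dkk1 minus wnt8a as squares. For axin2, sp5a, znf703, hspa1b, dkk1b, kcnb2a, gcdhb and igfbp1a both are far from 0, while for ythdf2, ap1g1, b4galt6, ctsba and cdc27 the difference from wnt8a is near 0.

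Among the 12 named falls, several were as low in wnt8a libraries as in dkk1 libraries. ythdf2, which encodes a reader of methylated messenger RNA, had 6.76, 6.42, 6.51 and 6.51 in dkk1 libraries, 6.99, 6.29, 7.51 and 6.44 in wnt8a libraries, and 9.55, 9.56, 8.99 and 9.16 in wild type. dkk1 and wnt8a values overlapped and stood more than 1 log2 unit under the lowest wild-type array; the difference was -2.76 ± 0.30 from wild type (adjusted p = 3.87e-10) and -0.26 ± 0.30 from wnt8a (adjusted p = 0.746). ap1g1, a subunit of a clathrin adaptor, had 5.04, 4.62, 5.05 and 4.97 in dkk1 libraries, 4.77 to 5.37 in wnt8a libraries, and 6.76, 7.08, 6.97 and 6.94 in wild type. Its difference was -2.02 ± 0.17 from wild type (adjusted p = 1.83e-14) and -0.07 ± 0.17 from wnt8a (adjusted p = 0.886). The dnfgfr1 line, heat-shocked and dissected alike, had ap1g1 at 6.81 to 7.21.

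The receptor gene notch3 had 5.91, 6.097, 5.91 and 6.03 in dkk1 libraries, 6.80, 7.29, 6.53 and 6.27 in wnt8a libraries, and 8.58, 7.89, 7.90 and 8.85 in wild type. dkk1 arrays were below both groups without overlap, but the difference from wnt8a, -0.74 ± 0.33, was not called (adjusted p = 0.238), while that from wild type was -2.32 ± 0.33 (adjusted p = 1.94e-07). b4galt6, a galactosyltransferase of glycolipid synthesis, stood at 6.65 to 7.41 in dkk1 libraries, 7.16 to 7.40 in wnt8a libraries and 8.998 to 9.28 in wild type (-2.06 ± 0.18 from wild type, adjusted p = 9.63e-14). It was at 7.65 to 7.97 in the libraries labelled DeltaTcf (-0.83 ± 0.18, adjusted p = 0.00255) and 8.64 to 8.88 in the dnfgfr1 line. The remaining falls were the phosphatase regulator gene ppp1r10 (-2.09 ± 0.28), the thioesterase gene ppt2a.2 (-2.01 ± 0.28) and the galectin gene lgals3b (-2.23 ± 0.48). lgals3b stood at 4.69 in dkk1 replicate 1 and 6.72 to 7.03 in the others, and against the 30 min wild-type libraries its difference turned to 0.31.

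hspa1b, an inducible Hsp70 gene, was lower in the dkk1 libraries than in each of the 3 groups set against them. It had 6.01, 6.87, 7.29 and 6.08 in dkk1 libraries, 8.51, 9.45, 8.82 and 9.13 in the libraries labelled DeltaTcf, 9.30, 9.23, 10.40 and 9.71 in wnt8a libraries, and 8.33, 8.36, 9.41 and 8.09 in wild type. No dkk1 array reached the range of these groups. The differences were -1.98 ± 0.59 from wild type (adjusted p = 0.0094), -3.09 ± 0.59 from wnt8a (adjusted p = 0.000714) and -2.41 ± 0.59 from the libraries labelled DeltaTcf (adjusted p = 0.0106). In the dnfgfr1 line, heat-shocked and dissected alike, the gene ranged from 6.38 to 10.75.

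**Figure D4:**
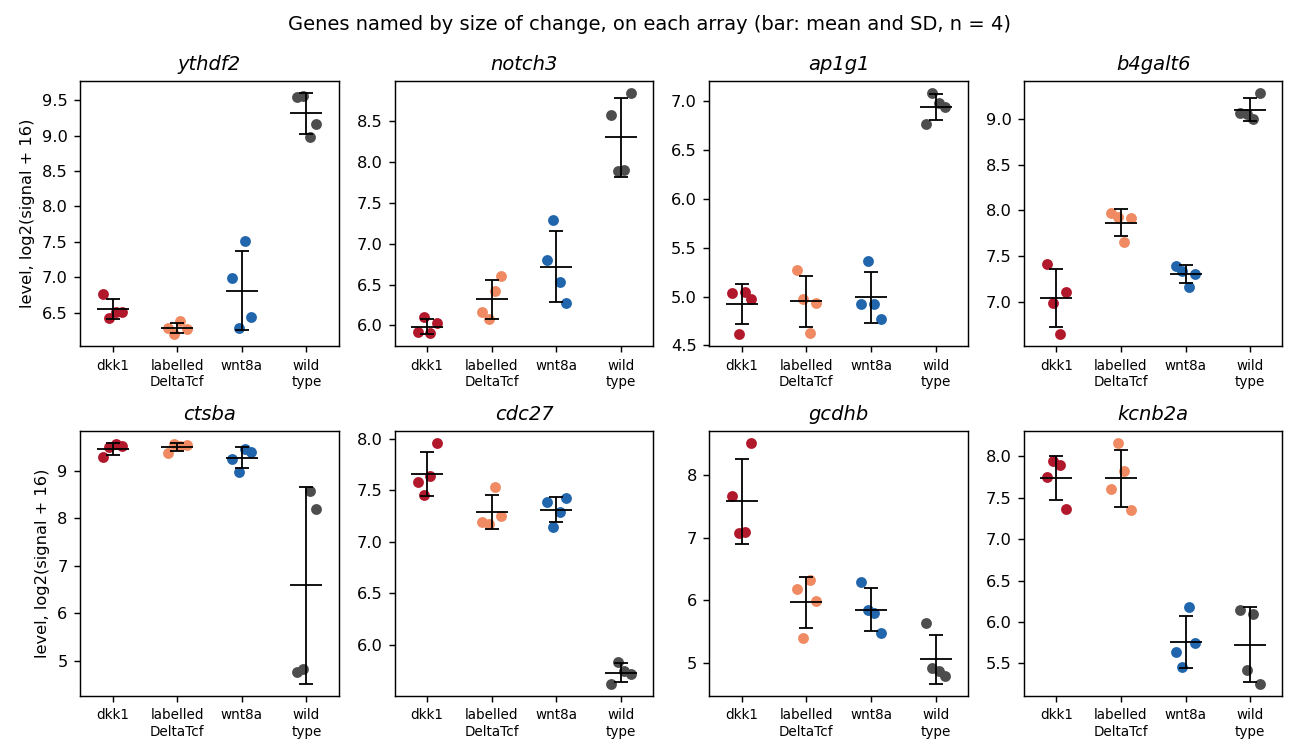
Level on each array of 8 genes chosen by the size of their change, as log2(signal + 16), in dkk1, labelled DeltaTcf, wnt8a and wild-type libraries (4 each, bars are mean and SD). ythdf2, notch3, ap1g1, b4galt6, ctsba and cdc27 set the 3 transgenic groups shown apart from wild type. gcdhb sets dkk1 apart, and kcnb2a sets dkk1 and the libraries labelled DeltaTcf apart. The dnfgfr1 line, not shown, lay nearer to wild type in ap1g1, b4galt6 and cdc27 and nearer to dkk1 in ctsba.

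The rises also differed in the groups that shared them. kcnb2a, a voltage-gated potassium channel gene, had 7.75, 7.95, 7.89 and 7.36 in dkk1 libraries, 7.36 to 8.17 in those labelled DeltaTcf, 5.63, 5.46, 6.19 and 5.75 in wnt8a libraries, and 6.14, 5.42, 6.09 and 5.25 in wild type. It was high, like dkk1b, in the dkk1 libraries and those labelled DeltaTcf, with a difference of 2.01 ± 0.24 from wild type (adjusted p = 3.23e-09) and 1.98 ± 0.24 from wnt8a (adjusted p = 5.64e-08).

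gcdhb, which encodes glutaryl-CoA dehydrogenase of lysine breakdown, had 7.66, 7.07, 7.08 and 8.51 in dkk1 libraries, 5.39 to 6.32 in those labelled DeltaTcf, 6.30, 5.84, 5.80 and 5.48 in wnt8a libraries, and 5.64, 4.93, 4.88 and 4.80 in wild type. The dkk1 libraries were above all the others, by 2.52 ± 0.32 from wild type (adjusted p = 1.23e-08), 1.73 ± 0.32 from wnt8a (adjusted p = 0.000379) and 1.61 ± 0.32 from those labelled DeltaTcf (adjusted p = 0.000901). The difference from each of these 2 lines lost its call with a pseudocount of 1. igfbp1a, an insulin-like growth factor binding protein gene that answers to stress and low oxygen, had 8.08, 8.62, 8.81 and 7.75 in dkk1 libraries, 6.49, 6.22, 7.04 and 6.30 in wnt8a libraries, and 5.95, 6.72, 6.20 and 6.48 in wild type. It did not overlap with either group (1.98 ± 0.30, adjusted p = 7.4e-07, and 1.80 ± 0.30, adjusted p = 5.81e-05), but a dimmer probe set of the same gene read 5.66 in dkk1 libraries and 5.64 in wild type.

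ctsba, the lysosomal protease cathepsin B, had 9.28, 9.49, 9.56 and 9.52 in dkk1 libraries, 8.97 to 9.47 in wnt8a libraries, and 4.78, 4.84, 8.57 and 8.19 in wild type. The dnfgfr1 line had 8.32 to 9.57. The wild-type arrays fell apart into replicates 1 and 2 and replicates 3 and 4, and the call (2.87 ± 0.39, adjusted p = 8.67e-08) was lost when the groups were fitted alone and against the 30 min wild-type libraries, which had 8.25 to 9.31. cdc27, a subunit of the anaphase-promoting complex, rose to 7.46 to 7.96 in dkk1 libraries, against 5.62 to 5.84 in wild type (1.93 ± 0.21, adjusted p = 3.37e-10), with wnt8a libraries at 7.15 to 7.43. It was at 5.92 to 6.32 in the dnfgfr1 line. ahsa1a, an activator of the Hsp90 chaperone, had 7.64, 8.46, 8.30 and 7.79 in dkk1 libraries, 7.72, 7.54, 4.82 and 7.56 in wnt8a libraries, and 5.16, 4.65, 4.41 and 4.65 in wild type (3.33 ± 0.87 from wild type, adjusted p = 0.00318, lost against the 30 min wild-type libraries).

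The other named rises were the lipoxygenase gene alox5b.3 (2.04 ± 0.30), the lipid transporter gene abca12 (1.98 ± 0.28), the GABA transaminase gene abat (1.89 ± 0.40, lost against the 30 min wild-type libraries) and dact2 (1.80 ± 0.62). alox5b.3 was also called against wnt8a (1.17 ± 0.30, adjusted p = 0.0155, lost in 6 of 17 alternative fits) and labelled DeltaTcf libraries (1.94 ± 0.30, adjusted p = 2.84e-05). abca12 and abat averaged 7.01 and 7.81 in wnt8a libraries, beside 7.49 and 7.90 in dkk1 libraries. dact2, whose product binds Dishevelled, had 9.64, 9.92, 9.66 and 9.67 in dkk1 libraries, against 6.67, 9.05, 9.23 and 6.74 in wild type. Wild-type replicates 1 and 4 were the low ones. The call (adjusted p = 0.0273) was lost without dkk1 replicate 2 or without wild-type replicate 1 or 4, and the value was -0.23 against the 30 min wild-type libraries.

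In the direct comparison with wnt8a libraries, the largest falls on the brightest probe set of a gene included noto, snu13a, btbd6a and six4a, besides hspa1b, sp5a and axin2. noto, the homeobox gene of the notochord, had 5.37, 5.42, 5.46 and 6.12 in dkk1 libraries, 8.24, 9.28, 8.05 and 7.69 in wnt8a libraries, and 9.02, 5.74, 6.11 and 9.29 in wild type. dkk1 and wnt8a arrays did not overlap (-2.72 ± 0.74, adjusted p = 0.0263), whereas wild type was split, with replicates 1 and 4 high. The same 2 wild-type libraries were those high in neural genes. The wnt8a libraries had a neural mean of 5.54 to 6.23 and a notochord list mean of 7.24 to 7.49, both above most dkk1 libraries. The part of these levels in the noto difference was not tested. The noto call against wnt8a was lost without dkk1 replicate 1, 2 or 3 or without wnt8a replicate 1 or 2, and its call against wild type (-1.95 ± 0.74, adjusted p = 0.0466) was lost without any 1 dkk1 library.

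six4a, a homeobox gene of muscle and sensory precursors, had 6.53, 6.08, 6.93 and 6.30 in dkk1 libraries, 8.57, 8.201, 8.79 and 8.38 in wnt8a libraries, and 6.36, 7.19, 6.89 and 6.57 in wild type, so that here the wnt8a libraries stood apart (-2.02 ± 0.34, adjusted p = 7.82e-05) and dkk1 did not differ from wild type by the test (adjusted p = 0.579). snu13a, a protein of spliceosomal and nucleolar RNA particles, had 7.24, 6.41, 6.89 and 6.63 in dkk1 libraries and 9.30, 7.57, 9.26 and 9.76 in wnt8a libraries (-2.18 ± 0.32, adjusted p = 6.6e-06), with wild type at 6.45 to 7.04, but its other probe set, at 6.48 in dkk1 libraries, was not called (0.14, adjusted p = 0.879). btbd6a, an adaptor for protein degradation, averaged 4.76 ± 0.30 in dkk1 libraries and 6.78 ± 0.87 in wnt8a libraries (SD, n = 4 each, adjusted p = 0.0155), and its call was lost without wnt8a replicate 1 or 2.

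Among the rises over wnt8a libraries, nucks1a, hcfc1b and kdelr2a were low in wnt8a rather than high in dkk1 on their brightest probe sets. The call of nucks1a was lost in 5 of 18 alternative fits. kdelr2a was also low in wild-type replicate 1, at 7.65, with the other wild-type arrays at 9.80 to 10.08. Its other probe set was not called against wnt8a (0.73, adjusted p = 0.0547). hcfc1b, a chromatin-associated host cell factor gene, had 8.09, 9.03, 8.96 and 8.64 in dkk1 libraries, 6.05, 6.59, 6.40 and 6.27 in wnt8a libraries, and 9.52, 8.88, 8.88 and 9.50 in wild type (2.35 ± 0.31 over wnt8a, adjusted p = 5.19e-07). Its 2 other probe sets were not called against wnt8a, and 1 of them was called lower in dkk1 than in wild type. It stood at 6.20 in dkk1 libraries and 7.67 in wild type (-1.47, adjusted p = 6.04e-10). dop1b, which encodes a protein of endosome traffic, was the opposite, with 6.74, 6.38, 6.41 and 6.22 in dkk1 libraries, 4.34 to 4.84 in wnt8a libraries and 4.50 to 4.84 in wild type. It was called against both (1.78 ± 0.28, adjusted p = 1.78e-05, and 1.77 ± 0.28, adjusted p = 1.87e-06). prdx1, a peroxide-reducing enzyme gene, likewise stood at 8.92 to 9.60 in dkk1 libraries, 7.95 to 8.15 in wnt8a libraries and 7.43 to 8.49 in wild type (1.31 ± 0.29 from wild type, adjusted p = 0.000368), although 2 further probe sets of that gene were not called.

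**Figure D5:**
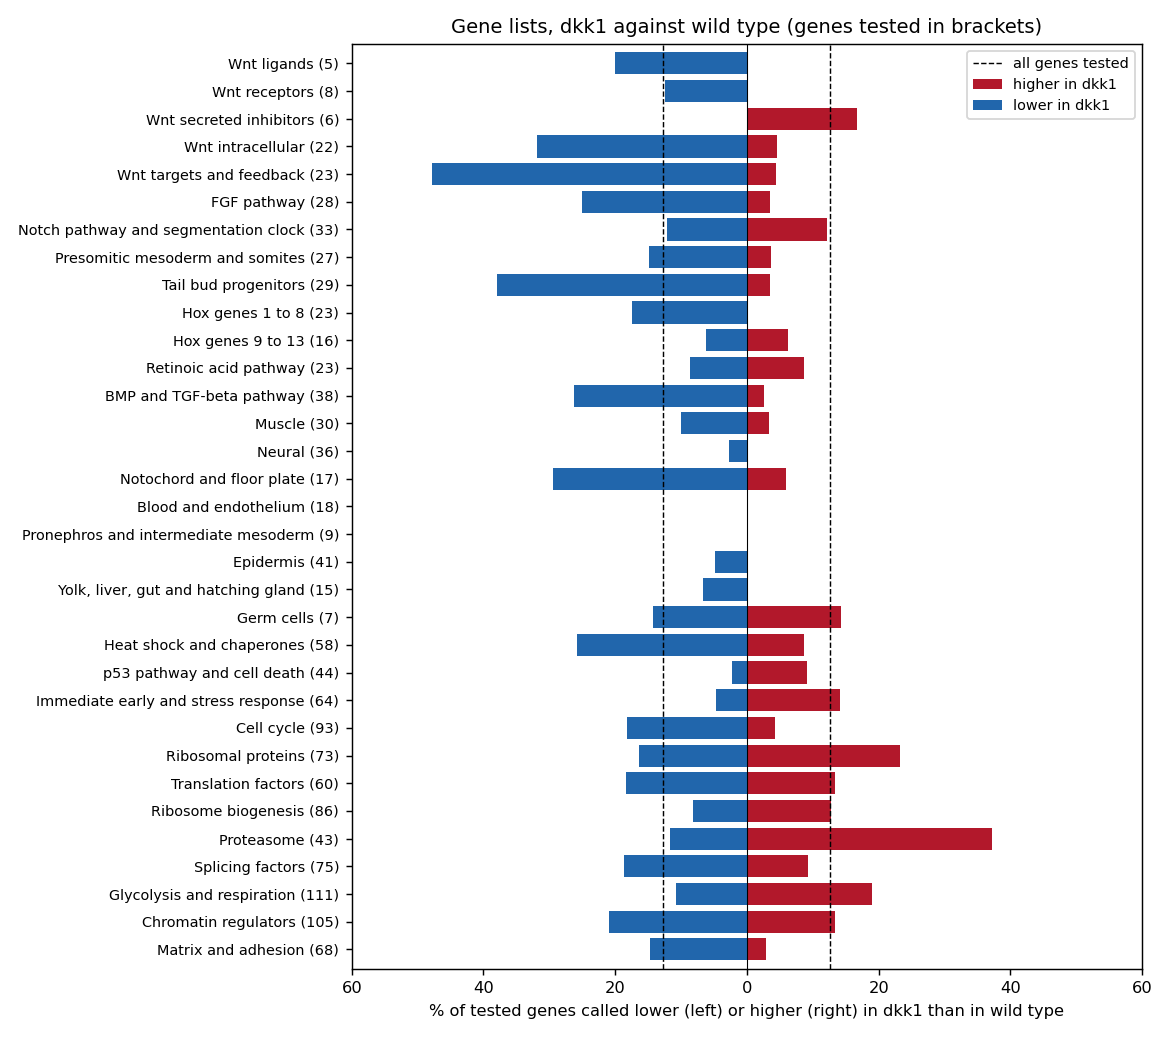
Share of the tested genes of each list called lower (left, blue) or higher (right, red) in dkk1 than in wild type, in %, with the number tested in brackets. Dashed lines are the shares over all genes tested, 12.6% higher and 12.8% lower. The bars of Wnt targets, tail bud progenitors, Wnt intracellular genes and the notochord and floor plate list reach furthest to the left of the line.

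The tail bud list, which shares members with the Wnt targets, had 33 genes on the array, 29 tested, with 1 called higher and 11 lower (41.4% beside 25.4% of all genes, median difference -0.96). It had 6 calls without dkk1 replicate 4 and 7 without wild-type replicate 1, and 3 of its genes, znf703, vox and noto, were lower than in wnt8a libraries. fgf8a, the Fgf ligand of the tail bud, had 6.30, 6.09, 5.31 and 5.38 in dkk1 libraries, 7.43, 8.11, 7.60 and 6.95 in wnt8a libraries, and 8.34, 6.32, 6.71 and 7.97 in wild type. The dkk1 arrays were below both groups, with the higher wild-type values again in replicates 1 and 4, the libraries high in neural genes. The call (-1.56 ± 0.54, adjusted p = 0.0282) was lost without dkk1 replicate 3 or 4 or wild-type replicate 1 or 4 and against the 30 min wild-type libraries, and the difference from wnt8a was -1.75 ± 0.54 (adjusted p = 0.0592). bmp4, a Bmp ligand of the ventral tail bud, had 4.54, 5.54, 5.98 and 4.72 in dkk1 libraries, against 6.70, 6.60, 7.74 and 6.84 in wild type (-1.77 ± 0.49, adjusted p = 0.005), with wnt8a libraries at 5.22 to 6.11.

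In the Bmp and TGF-beta list 1 of 38 tested genes rose and 10 fell, 28.9% beside 25.4% of all genes, and there were 7 calls without wild-type replicate 2. Against wnt8a libraries 3 were lower and none higher, 7.89% beside 3.37%. msx1a, a homeobox target of Bmp signals, had 6.20, 5.96, 5.75 and 6.17 in dkk1 libraries, 7.31, 7.51, 7.88 and 7.26 in wnt8a libraries, and 7.47, 7.68, 7.89 and 6.59 in wild type. smad7, an inhibitor of the pathway's receptors, had 5.92, 6.08, 6.27 and 5.77 in dkk1 libraries, 6.91, 6.97, 6.71 and 6.78 in wnt8a libraries, and 7.02, 6.95, 7.30 and 7.31 in wild type. Both were below all wnt8a and wild-type arrays, msx1a by -1.39 ± 0.27 and -1.47 ± 0.27 (adjusted p = 9.16e-05 and 0.000453) and smad7 by -1.13 ± 0.19 and -0.83 ± 0.19 (adjusted p = 6.75e-06 and 0.00639) from wild type and wnt8a. The receptor gene acvr1l was the third (-0.63 ± 0.15 and -0.85 ± 0.15), but it was not called against the 30 min wild-type libraries.

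Fgf pathway genes numbered 28 tested, 1 higher and 7 lower (28.6%, close to the 25.4% of all genes), and there were 5 calls without dkk1 replicate 3 or 4 or wild-type replicate 1 or 4. spry4, a feedback inhibitor of Fgf signals, had 9.44, 9.56, 9.40 and 9.67 in dkk1 libraries, 10.09, 9.65, 10.19 and 9.82 in wnt8a libraries, and 10.82, 11.06, 11.11 and 11.12 in wild type (-1.51 ± 0.28 from wild type, adjusted p = 3.02e-05, and -0.42 ± 0.28 from wnt8a, adjusted p = 0.472). fgf10a, an Fgf ligand gene, fell by 1.68 ± 0.37 (adjusted p = 0.000446). Against wnt8a libraries limma called 0 genes of the list, beside 3.37% of all genes, and 4 had an unadjusted p under 0.05.

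Notch and clock genes were called near the background, 4 higher and 4 lower of 33 (24.2%), with 5 calls without wild-type replicate 3. Besides notch3, notch1a fell (-1.39 ± 0.41, adjusted p = 0.00895), while nrarpa, a Notch feedback gene, rose to 11.67 to 11.83 in dkk1 libraries, against 10.85 to 11.40 in wild type (0.64 ± 0.14, adjusted p = 0.000457). A dimmer probe set of notch1a was not called (-0.69, adjusted p = 0.384). Of dimmer nrarpa probe sets tested, 1 was called higher (1.32, adjusted p = 3.32e-06) and 1 was not called (0.14, adjusted p = 0.68). The clock genes her1 and her7 averaged 7.43 and 6.98 in dkk1 libraries, against 8.28 and 8.24 in wild type, and neither was called (adjusted p = 0.164 and 0.0886). The ligand gene dld was the only member called against wnt8a, at 10.17 to 10.45 in dkk1 libraries and 9.87 to 9.98 in wnt8a libraries (0.37 ± 0.09, adjusted p = 0.0118), a call lost without dkk1 replicate 1. It was also above wild type, at 9.87 to 10.05 (0.35 ± 0.09, adjusted p = 0.00242, lost against the 30 min wild-type libraries).

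Genes of the PSM and somites gave 1 rise and 4 falls of 27 (18.5%, with 3 calls without dkk1 replicate 3), Hox genes 1 to 8 no rise and 4 falls of 23 (17.4%), and retinoic acid genes 2 rises and 2 falls of 23 (17.4%), beside 25.4% of all genes. The first of these splits depends on scaling, with 5 rises and 4 falls on the deposited scale and 3 and 4 after median centring, and Hox genes 1 to 8 had 1 rise and 7 falls against the 30 min wild-type libraries. hoxa10b belongs to the list of Hox genes 9 to 13. It had 7.76, 8.07, 8.003 and 8.01 in dkk1 libraries, 8.88, 8.83, 8.91 and 8.76 in wnt8a libraries, and 8.41, 8.82, 9.07 and 8.70 in wild type. It lay below both groups without overlap (-0.79 ± 0.13, adjusted p = 5.92e-06, and -0.89 ± 0.13, adjusted p = 6.6e-06). The myogenic factor gene myod1 rose to 7.68, 7.98, 7.70 and 8.98 in dkk1 libraries, against 7.21, 6.33, 6.097 and 6.32 in wild type (1.59 ± 0.39, adjusted p = 0.00167), with 3 of 30 muscle genes lower and no other one higher (the list had 2 calls without wild-type replicate 4). Muscle genes as a list averaged 6.44 to 7.45 in dkk1 libraries and 6.86 to 7.41 in wild type.

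Among lists for other tissues, limma called 0 of 18 blood and endothelium and 0 of 9 pronephros genes (1 and 0 at an unadjusted p under 0.05), beside 25.4% of all genes. The mean level of the blood and endothelium list ran from 4.93 to 6.59 in dkk1 libraries and from 5.21 to 6.48 in wild type. So wide a spread within groups limits what the absence of calls shows. Lower were 2 of 41 epidermal genes (4.88%) and 1 of 36 neural genes (2.78%), the neural call being lost without dkk1 replicate 4. Of 17 genes on the notochord and floor plate list 5 were lower, the coatomer gene copb2 among them, and 1 was higher (35.3%). The higher one was shha, a secreted floor plate and notochord signal, at 4.95, 5.997, 6.13 and 6.096 in dkk1 libraries, against 4.82, 4.26, 4.55 and 4.87 in wild type. The floor plate factor gene foxa2 went the other way, at 4.80 ± 0.54 in dkk1 libraries and 5.98 ± 0.45 in wild type (SD, n = 4 each, -1.18 ± 0.33, adjusted p = 0.00537). Both genes lay low on the scale, both lost their call against the 30 min wild-type libraries, and neither was called against wnt8a.

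Housekeeping and stress lists held many calls of small size. Over all genes 25.4% were called, 12.6% higher and 12.8% lower, and the shares below stand beside these. Proteasome genes were called 16 times higher and 5 times lower of 43 (48.8%), psmd8 by 0.49 ± 0.11 (adjusted p = 0.000678). psmd1 went the other way, by -0.93 to -0.67 over 19 alternative fits, and kept its call in all of them. With the 30 min wild-type libraries as control, however, the count was 8 higher and 10 lower, and psmd8 lost its call (0.09, adjusted p = 0.592). Ribosomal protein genes gave 17 higher and 12 lower of 73 (39.7%). That split depends on scaling, since it was 50 higher and 3 lower on the deposited scale and 47 and 2 after median centring, with rpl15 at -0.34 ± 0.04 here and 0.15 in both of those. Chaperone genes gave 5 higher and 15 lower of 58 (34.5%), including the mitochondrial chaperonin gene hspd1 (-0.81 ± 0.11, adjusted p = 2.33e-08), the cytosolic chaperonin gene cct2 (-0.88 ± 0.13, adjusted p = 3.92e-07, with a dimmer probe set at 0.30 and not called) and pdia6, which forms disulphide bonds (-1.27 ± 0.22, adjusted p = 6.46e-06). On the deposited scale the same list had 11 higher and 13 lower. Against wnt8a libraries these 3 chaperone genes had adjusted p of 0.446, 0.67 and 0.207.

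Immediate early and stress genes stood at 9 higher and 3 lower of 64 (18.8%), led by igfbp1a, prdx1 and asns, the asparagine synthetase of the amino acid response, which rose to 7.99 to 8.25 in dkk1 libraries, against 6.57 to 6.84 in wild type (1.37 ± 0.16, adjusted p = 1.08e-09), with wnt8a at a mean of 7.93, while a dimmer probe set of asns read 0.13 and was not called. Cell cycle genes gave 4 higher and 17 lower of 93 (22.6%), and p53 and cell death genes 4 higher and 1 lower of 44 (11.4%), beside 25.4% of all genes. Against the 30 min wild-type libraries the p53 and cell death genes had 8 higher and 3 lower, and the immediate early and stress genes 11 and 8.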

How the data were processed

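RNA of 72 samples in 19 groups was hybridised to zebrafish expression arrays, and the authors deposited intensity values computed with MAS5, per the submitters' processing notes (version not given in the sources used here). Each array's deposited intensities had a trimmed mean (2% off each end) of 150, and array medians spanned 0.741 on the log2 scale. From 15617 probe sets the 115 controls were left out. Values were taken as log2(signal + 16) and quantile-normalised, and 10126 probe sets above the array median on at least 3 arrays were fitted over all groups with limma 3.58.1 (trend and robust settings, statmod 1.5.0, R 4.3.3), with Benjamini-Hochberg adjustment within each of 3 comparisons and a threshold of 0.05. The code was tested on simulated data. Platform annotation gave 1 symbol to 10795 probe sets, several to 135 and none to 4572; 10711 matched RefSeq by Entrez ID. Each of 6503 genes is represented by its brightest probe set, and signals of different probe sets are not comparable as amounts.

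Members and gene lists were chosen with earlier results of these data known, and S6 kinase genes were dropped from the ribosomal list after values were seen. Genes named are dkk1b and the Wnt lists, the 12 largest called rises and 12 largest falls without overlap against wild type, 8 and 8 likewise against wnt8a, up to 6 members with the smallest p of each other list, and the 4 brightest of each list of other cell types; tissue markers are given besides. Wild type dissected 30 min after the shock, other scalings, pseudocounts, filters, array weights, replicate blocks and leaving out each array were alternatives. Replicate numbers did not pair the samples. Promoter sequences were not analysed here, and the result of 1 gene that this rule names is not reported here.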

Additional observations from a re-analysis of the deposited data

Results flagged for a closer look

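Of the 115 control probe sets, which entered no comparison, 3 were far above wild type in the dkk1 libraries. On the deposited scale, as log2(signal + 16), they averaged 12.70, 10.77 and 9.52 in dkk1 libraries, against 4.08 to 4.35, 4.04 to 4.34 and 4.09 to 4.22 over the wild-type arrays. The same 3 averaged 12.47, 10.55 and 8.46 in the libraries labelled DeltaTcf, 12.19, 9.99 and 7.73 in wnt8a libraries, and 4.43, 4.22 and 4.47 in the dnfgfr1 line. They carry no gene annotation in the files used here.

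Single arrays that stood apart from the other 3 of their group by Dixon's criterion are given for 114 genes named above in the dkk1, labelled DeltaTcf, wnt8a and wild-type groups. Of 456 groups of 4 arrays tested 30 held such an array, and chance alone gives about 1 in 20. In dkk1 replicate 1, acvr1l was at 7.68 beside 7.96 to 7.999 in the other dkk1 arrays, lgals3b at 4.69 beside 6.72 to 7.03, shha at 4.95 beside 5.997 to 6.13, sp5a at 4.69 beside 5.16 to 5.24 and pygo2 at 8.27 beside 7.72 to 7.79. In dkk1 replicate 2, ap1g1 was at 4.62 beside 4.97 to 5.05, dact2 at 9.92 beside 9.64 to 9.67 and elavl3 at 4.82 beside 4.27 to 4.35. In dkk1 replicate 3, sall4 was at 4.91 beside 4.07 to 4.08 and tbx6 at 8.75 beside 9.52 to 9.63. In dkk1 replicate 4, cyp26a1 was at 5.89 beside 7.35 to 7.39, noto at 6.12 beside 5.37 to 5.46 and sp5l at 9.80 beside 9.91 to 9.92.

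In the libraries labelled DeltaTcf, dop1b was at 7.20 in replicate 1 beside 4.53 to 4.89, and notch1a there was at 6.12 beside 6.74 to 6.81, eef2b at 12.52 beside 12.64 to 12.66 and myf5 at 10.57 beside 11.15 to 11.22. Replicate 2 of that label had dvl2 at 7.41 beside 7.44 to 7.45, and replicate 3 had id3 at 6.13 beside 5.71 to 5.74. Replicate 4 had ccnd1 at 10.32 beside 10.59 in the others, msx1a at 5.72 beside 6.29 to 6.36 and wnt5b at 7.51 beside 7.71 to 7.75.

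In wnt8a replicate 2, ctnnb2 was at 10.68 beside 10.51 to 10.53 and kdelr2a at 7.96 beside 7.70 to 7.72. ahsa1a was at 4.82 in wnt8a replicate 3 beside 7.54 to 7.72, and rpl15 at 12.58 in wnt8a replicate 4 beside 12.48 to 12.49. In wild-type replicate 1, gcdhb was at 5.64 beside 4.80 to 4.93 and kdelr2a at 7.65 beside 9.80 to 10.08. ctnnb2 was at 11.12 in wild-type replicate 3 beside 10.83 to 10.86, and tbx16 at 10.97 in wild-type replicate 4 beside 11.49 to 11.57.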

How the results depend on the processing

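The number of called probe sets in dkk1 against wild type was 2494 and ranged from 2104 to 3137 over all alternatives, the highest with the 30 min wild-type libraries as control, and from 2104 to 2185 without single arrays. Against wnt8a libraries, 332 in the report, it was 604 with array quality weights and 199 to 268 without single arrays (206, 199 and 211 without wnt8a replicates 1, 2 and 3). Against the libraries labelled DeltaTcf, 352 in the report, it was 230 under median centring, 176 with the groups fitted alone, 199 with a replicate block added, and 191 to 329 without single arrays (221 without dkk1 replicate 4, 227 and 191 without DeltaTcf replicates 1 and 3). Higher calls made up 61.3% under median centring there, against 49.1% in the report, and 37.6% of those against wnt8a with a pseudocount of 1, against 47.0% in the report. With a replicate block the counts were 2133 against wild type and 255 against wnt8a; same-numbered arrays of dkk1 and wild type correlated at 0.110, -0.030, 0.042 and 0.021. Of named called genes, 113 of 157 against wild type, 20 of 34 against wnt8a and 8 of 18 against the libraries labelled DeltaTcf were called in every alternative that tested them. The sign against wild type turned on the deposited scale and under median centring for eef2b (0.28 in both), rpl13a (8.0e-05 and 0.0061) and rpl15 (0.147 and 0.153), and with the 30 min wild-type libraries for dact2 (-0.23), lamc1 (0.51) and lgals3b (0.31). The cause was not tested in any of these. Dim genes near the bottom of the scale have little signal over background, which limits their differences.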

Other observations

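Among lists not described above, chromatin regulators had 14 genes called higher and 22 lower in dkk1 than in wild type of 105 tested (34.3%, beside 25.4% of all genes), and splicing factors 7 and 14 of 75 (28.0%, near that share). Translation factors had 8 higher and 11 lower of 60 (31.7%). Ribosome biogenesis genes had 11 higher and 7 lower of 86 (20.9%), with 11 calls without wild-type replicate 3, and 9 higher and 21 lower with the 30 min wild-type libraries as control. Glycolysis and respiration genes had 21 higher and 12 lower of 111 (29.7%), but 8 higher and 30 lower with the 30 min wild-type libraries as control. Matrix and adhesion genes had 2 higher and 10 lower of 68, 17.6%. Hox genes 9 to 13 had 1 higher and 1 lower of 16, against 3 and 2 with the 30 min control, and germ cell genes 1 and 1 of 7. Of 15 yolk, liver, gut and hatching gland genes 1 was lower, a call lost without dkk1 replicate 3 or wild-type replicate 1, 3 or 4, and on the deposited scale and after median centring the list had 1 higher and 0 lower instead.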
